A study of Homo sapiens with 32 samples.

Results

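Retinoic acid synthesis, receptors and clearance were followed through 10 genes in Ewing sarcoma cell lines that had lost or regained STAG2, or had lost STAG1, EZH2 or SUZ12. The members were listed by symbol: ALDH1A1, ALDH1A2, ALDH1A3, RARA, RARB, RARG, CRABP1, CRABP2, CYP26A1 and CYP26B1. All 10 were found among the 28278 gene symbols of the count tables and, by Ensembl gene, among the 60199 genes of the knockdown table.

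Retinoic acid is a hormone-like derivative of vitamin A that directs cell differentiation, above all in the developing nervous system, limbs and neural crest. Cells make it from retinaldehyde with the ALDH1A dehydrogenases, carry it in the cytoplasm on the CRABP proteins, read it with the RAR receptors, which bind DNA with RXR partners, and break it down with the CYP26 hydroxylases. RARB, CYP26A1 and several HOX genes are textbook targets of the ligand-bound receptors, and Polycomb group proteins keep many of the same developmental genes silent in cells that do not use them.

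The study asked how the cohesin subunit STAG2 shapes gene expression in Ewing sarcoma, a tumor of bone and soft tissue driven by a fusion of EWSR1 with an ETS factor gene, and 32 bulk RNA-seq libraries were deposited. Of these, 22 came from A673 knockout clones, a WT clone and the parental line in 3 experiments, 6 from A673 cells transfected with small interfering RNA, and 4 from pairs of isogenic SK-N-MC and A4573 cells. STAG1 is the paralog found in cohesin in place of STAG2, and the study's paper reports that it did not make up for the loss of STAG2 in these cells. EZH2 and SUZ12 are the catalytic subunit and a core subunit of Polycomb repressive complex 2.

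Experiment 1 held A673 STAG2 KO (knockout) clones 5 and 24 beside the WT clone (libraries Ra and Rb) and the parental line. By the study's paper, the WT clone carries an inducible Cas9, and the A673 knockout clones were made from it. Experiment 2 held STAG2 KO clones 2, 3 and 5, EZH2 KO clones 1 to 3 and SUZ12 KO clones 1 to 3 beside 2 WT clone libraries and 1 of the parental line, so its 3 knockouts shared the same 3 controls. In experiment 3, STAG1 KO clones g2n1, g2n5 and g2n7 stood beside 1 WT clone library and 1 parental library. Experiment 4 compared 3 siSTAG2 transfections with 3 control transfections. The isogenic lines were SK-N-MC WT and STAG2 KO, and A4573 WT, which by the study's paper lacks STAG2, with its STAG2 KI (knock-in) derivative; each was 1 library. Clones are named as in the count tables, and the names 5 and 24 of experiment 1 and g2n1, g2n5 and g2n7 of experiment 3 are not those of the sample labels, which number these clones 1 and 4, and 1 to 3. Those columns were therefore matched to their groups only, and whether STAG2 KO 5 of experiment 1 and STAG2 KO 5 of experiment 2 are the same clone is not known. Every knockout library was 1 clone, and the repeated WT libraries of an experiment came from the WT clone alone, so clonal differences and the edit cannot be told apart beyond the spread between clones.

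Total counts ran from 15734628 to 20663679 in the 22 A673 clone libraries and from 29322507 to 32261248 in the 4 isogenic libraries. The knockdown table held normalized reads, and the whole reads recovered from it totalled 6852340 to 8184632 per library. Values below are counts scaled by library size with TMM factors (CPM), or the authors' normalized reads for the knockdown. Where libraries are said to lie apart from their controls, this describes the libraries only. The share of all genes that do so was not counted in any comparison. A library with at most 3 counts of a gene was taken as at the floor, and intervals and floors cover counting error only, since PCR reads without molecular identifiers are not independent molecules.

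The cell type was checked with 8 Ewing sarcoma markers. Of these, 7 were above the floor in all 26 libraries of the count tables, where CD99 was listed at 0, and all 8 were above it in the knockdown libraries. Their summed level was 2144 to 4727 CPM in the A673 clones and 1645 to 2674 CPM in the isogenic lines, with CCND1 the most abundant. The 8 markers of leukocytes, endothelium, epithelium, fibroblasts, hepatocytes and muscle summed to 2.82 to 24.9 CPM in the A673 clones and 8.47 to 89.0 CPM in the isogenic lines.

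The edited genes were read first. STAG2 stood at 293, 301 and 281 CPM in the WT clone Ra, WT clone Rb and parental libraries of experiment 1, and at 42.2 and 183 CPM in STAG2 KO 5 and 24. Experiment 2 had 296, 358 and 255 CPM in its controls and 63.4, 68.9 and 59.2 CPM in STAG2 KO 2, 3 and 5. STAG2 KO 24 thus kept more STAG2 RNA than the other 4 clones, and the members' STAG2 KO results below are also given without it.

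STAG2 RNA fell in the knockdown from 1068, 992 and 1090 to 144, 180 and 153 normalized reads. EZH2 fell from 171, 176 and 193 CPM to 45.5, 54.9 and 28.3 CPM in EZH2 KO 1, 2 and 3, and SUZ12 from 59.9, 66.6 and 60.5 CPM to 15.8, 11.3 and 20.5 CPM in SUZ12 KO 1, 2 and 3. STAG1 was at 57.4 CPM in the WT clone and 69.1 CPM in the parental line of experiment 3, and at 61.1, 15.0 and 33.0 CPM in g2n1, g2n5 and g2n7. The g2n1 library therefore went against its label by RNA level, and the members' STAG1 KO results are also given without it. STAG2 was at 293 CPM in SK-N-MC WT and 184 CPM in its STAG2 KO, and at 86.9 CPM in A4573 STAG2 KI and 34.1 CPM in A4573 WT. An edit can abolish a protein without lowering its RNA, so these levels do not measure the proteins.

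The members lie on 8 chromosomes of GRCh38 (GENCODE 44), and 3 of them share chromosome 15. ALDH1A1 (ENSG00000165092, chr9:72900671-73080442), ALDH1A2 (ENSG00000128918, chr15:57953424-58497866) and ALDH1A3 (ENSG00000184254, chr15:100877714-100916626) encode the dehydrogenases. CRABP1 (ENSG00000166426, chr15:78340353-78348225) and CRABP2 (ENSG00000143320, chr1:156699606-156705816) encode the carriers. RARA (ENSG00000131759, chr17:40309180-40357643), RARB (ENSG00000077092, chr3:24687887-25597932) and RARG (ENSG00000172819, chr12:53210567-53232980) encode the receptors. CYP26A1 (ENSG00000095596, chr10:93073475-93077885) and CYP26B1 (ENSG00000003137, chr2:72129238-72147862) encode the hydroxylases. Exons of ALDH1A2, ALDH1A3, RARA, CRABP1 and CYP26A1 overlap those of other annotated genes, and because the libraries were not directional, reads in those overlaps cannot be told apart.

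All 10 members matched a promoter of 300 bases in RefSeq (GRCh38.p14), running from 250 bases before to 50 bases after the start. A retinoic acid response element of the type with 5 bases between its repeats was searched on both strands as TTCANNNNNAGTTCA, which 34 of 35116 promoters held (0.0968%). Among the members, only the CYP26A1 promoter held it, on the opposite strand and beginning 90 bases before the start. The tandem GGAAGGAA, the core of the repeats bound by the Ewing sarcoma fusion, was in 1290 promoters (3.67%) and in none of the members'. A match is a description and not a site in use, and a lack of one says only that these letters are not in this window. Members were searched in this window alone and not at other starts, and the window of RARB (chr3:25458060-25458359) lies inside the annotated gene. The promoters of CYP26A1 (chr10:93073643-93073942, plus strand), which carries the match in capitals although the gene was near the floor, and of CRABP1 (chr15:78340103-78340402, plus strand) and CYP26B1 (chr2:72147813-72148112, minus strand), which were lower both in STAG2 KO clones and after siSTAG2, are shown 5′ to 3′.
CYP26A1: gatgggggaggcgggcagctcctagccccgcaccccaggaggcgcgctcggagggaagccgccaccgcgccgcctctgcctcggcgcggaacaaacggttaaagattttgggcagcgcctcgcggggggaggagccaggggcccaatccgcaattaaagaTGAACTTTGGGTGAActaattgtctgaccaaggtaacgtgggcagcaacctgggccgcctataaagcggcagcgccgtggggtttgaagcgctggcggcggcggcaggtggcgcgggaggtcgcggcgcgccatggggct
CRABP1: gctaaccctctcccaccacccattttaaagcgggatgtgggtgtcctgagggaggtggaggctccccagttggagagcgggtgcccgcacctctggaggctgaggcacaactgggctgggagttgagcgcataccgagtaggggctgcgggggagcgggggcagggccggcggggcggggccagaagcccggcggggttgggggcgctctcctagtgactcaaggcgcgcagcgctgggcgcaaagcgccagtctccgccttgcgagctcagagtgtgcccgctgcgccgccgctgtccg
CYP26B1: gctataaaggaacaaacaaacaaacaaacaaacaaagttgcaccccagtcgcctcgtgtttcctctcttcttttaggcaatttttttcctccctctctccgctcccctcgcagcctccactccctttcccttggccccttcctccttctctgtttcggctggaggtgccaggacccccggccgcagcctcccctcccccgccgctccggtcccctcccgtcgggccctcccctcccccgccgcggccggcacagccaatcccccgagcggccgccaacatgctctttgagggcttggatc

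Bases G and C made up 67.7% of the CYP26A1 promoter, 70.3% of that of CRABP1 and 62.7% of that of CYP26B1, against a median of 58.7% over all promoters. They held 32, 25 and 19 CG dinucleotides, against a median of 14.

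How high each step of the pathway stands in A673 cells was compared per kilobase of exon, since longer transcripts give more reads. Over the 8 control libraries of experiments 1 to 3, CRABP1 was highest at 30.0 ± 11.1 CPM per kilobase (SD, n = 8), followed by RARG at 6.31 ± 2.39, CRABP2 at 6.07 ± 4.45, RARA at 4.26 ± 1.01 and CYP26B1 at 3.95 ± 1.73 CPM per kilobase. These last 4 lay within the spread of their neighbours in the order. ALDH1A1 at 0.821 ± 0.567 and ALDH1A3 at 0.766 ± 0.875 CPM per kilobase did not differ beyond their spread, and RARB, ALDH1A2 and CYP26A1 were near the floor. CRABP1 also led in the other lines, with 410 CPM per kilobase in SK-N-MC WT and 1189 in A4573 STAG2 KI, and in the control transfections, with 263 ± 26.6 normalized reads per kilobase (SD, n = 3). The order below it differed between lines in these single libraries. SK-N-MC WT had CYP26B1 at 47.4 and ALDH1A1 at 33.1 CPM per kilobase, whereas A4573 STAG2 KI had CRABP2 at 220 and no ALDH1A1 count.

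RARB and CYP26A1, the members best known as targets of the pathway itself, and ALDH1A2 were at or near the floor in A673. Of the 22 clone libraries, ALDH1A2 was at the floor in 17, RARB in 20 and CYP26A1 in all 22, with highest counts of 8, 9 and 3. ALDH1A2 reached 3, 5 and 6 counts in EZH2 KO 1, 2 and 3 and 8, 8 and 2 counts in SUZ12 KO 1, 2 and 3, against 1, 0 and 0 in the controls of experiment 2. The ratio of summed ALDH1A2 counts, scaled for depth, was 11.9 in EZH2 KO (95% interval 1.81 to 504) and 15.1 in SUZ12 KO (2.38 to 627). For RARB, SUZ12 KO 1, 2 and 3 had 9, 4 and 1 counts against 1 in each control, a ratio of 3.90 (1.09 to 21.2). RARB and CYP26A1 had no reads in any knockdown library, and ALDH1A2 had 1 read in control transfection 2, so a change in these genes there was not detectable at this depth.

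The first comparison asked which steps of the pathway change when A673 cells lose STAG2. In the synthesis step, ALDH1A1 was at 1.74, 1.63 and 1.35 CPM in WT clone Ra, WT clone Rb and parental cells of experiment 1, and at 0.0575 and 0 CPM in STAG2 KO 5 and 24. In experiment 2 it was at 1.19, 1.59 and 2.05 CPM in WT clone 1, WT clone 2 and parental cells, and at 0.0552, 0.105 and 1.04 CPM in STAG2 KO 2, 3 and 5. All 5 STAG2 KO libraries were below all 6 controls, with STAG2 KO 5 of experiment 2 just below the lowest control and the other 4 at the floor. In bulk RNA, fewer cells of a type and less RNA per cell cannot be told apart. ALDH1A3 was at 1.80, 3.48 and 3.37 CPM in the controls of experiment 1 and at 0.115 and 0 CPM in STAG2 KO 5 and 24. It was at 0.510, 0.510 and 0.499 CPM in the controls of experiment 2 and at 0, 0.0525 and 0.835 CPM in STAG2 KO 2, 3 and 5, so STAG2 KO 5 of experiment 2 was above its own controls and the groups overlapped. ALDH1A3 did not pass the filter on low counts in this comparison, with 19 counts over the STAG2 KO libraries and 188 over the controls.

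Among the carriers, CRABP1 was at 33.8, 35.0 and 15.2 CPM in WT clone Ra, WT clone Rb and parental cells of experiment 1 and at 4.26 and 2.92 CPM in STAG2 KO 5 and 24. In experiment 2 it was at 22.8, 18.0 and 21.3 CPM in WT clone 1, WT clone 2 and parental cells and at 3.64, 7.77 and 17.9 CPM in STAG2 KO 2, 3 and 5. Within each experiment all STAG2 KO libraries were below the controls, but STAG2 KO 5 of experiment 2 was above the parental cells of experiment 1. CRABP2 was at 9.16, 7.90 and 4.97 CPM in the controls of experiment 1 and 1.61 and 1.57 CPM in STAG2 KO 5 and 24. In experiment 2 CRABP2 was at 1.36, 1.85 and 2.27 CPM in the controls and at 0.662, 1.42 and 13.6 CPM in STAG2 KO 2, 3 and 5, where the last clone was the highest of the 11 libraries.

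The receptor genes did not separate the groups. RARA ranged from 12.7 to 24.7 CPM over the 6 controls and from 14.9 to 28.7 CPM over the 5 STAG2 KO libraries. RARG ranged from 18.0 to 31.4 CPM over the controls and from 6.97 CPM in STAG2 KO 24 to 31.9 CPM in STAG2 KO 5 of experiment 2. In the clearance step, CYP26B1 was at 18.3, 19.9 and 7.31 CPM in WT clone Ra, WT clone Rb and parental cells of experiment 1, and at 2.30 and 2.47 CPM in STAG2 KO 5 and 24. In experiment 2 it was at 31.0, 24.7 and 6.76 CPM in WT clone 1, WT clone 2 and parental cells, and at 6.07, 2.05 and 0.365 CPM in STAG2 KO 2, 3 and 5. All 5 STAG2 KO libraries were below all 6 controls, and the parental cells were the lowest controls in both experiments.

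In edgeR, with the experiment as a term, 6 of the 10 members could be tested, and 3 were called lower and 0 higher at an adjusted p under 0.05. Of all 13574 genes tested, 12.4% were called in either direction and 5.76% were called lower. The median log2 fold change was -1.003 over the 6 members and 0.04 over all genes tested. CYP26B1 was 6.74-fold lower, from 18.0 ± 9.58 CPM (SD, n = 6) to 2.65 ± 2.09 CPM (SD, n = 5), a log2 fold change of -2.75 with an edgeR adjusted p of 0.0139. It was called without any single library, at log2 fold changes of -3.32 to -2.47, and without STAG2 KO 24 it was -2.79 with an edgeR adjusted p of 0.0312. CRABP1 was 3.49-fold lower, from 24.4 ± 8.21 CPM (SD, n = 6) to 7.31 ± 6.23 CPM (SD, n = 5), a log2 fold change of -1.80 with an edgeR adjusted p of 0.0409. That call was lost on leaving out any 1 library other than WT clone 2 or STAG2 KO 5 of experiment 2, with edgeR adjusted p values of 0.0526 to 0.124, and without STAG2 KO 24 the log2 fold change was -1.47. ALDH1A1 was lower, from 1.59 ± 0.302 CPM (SD, n = 6) to 0.252 ± 0.444 CPM (SD, n = 5), at a log2 fold change of -2.84 with an edgeR adjusted p of 0.0442. With 4 of the 5 STAG2 KO libraries at the floor, it passed the low-count filter through its controls, where it was high. It was therefore open to a lower call only, and the size is not exact. The 3 calls and the median of the members above include it. Its call was lost on leaving out any 1 library other than STAG2 KO 5 of experiment 2, with edgeR adjusted p values of 0.0586 to 0.121, among them 0.0821 without STAG2 KO 24. Without STAG2 KO 5 of experiment 2, ALDH1A1 was at -4.66 (edgeR adjusted p 8.24e-05), a value fitted to STAG2 KO libraries that were all at the floor, CRABP1 was at -2.35 and CRABP2, at 0.11 over all libraries (edgeR adjusted p 0.966), was called lower at -1.49 (edgeR adjusted p 0.0134). RARA at 0.19 and RARG at -0.20 had edgeR adjusted p values of 0.445 and 0.784. Without STAG2 KO 24, RARA was at 0.11, RARG at 0.12, CRABP2 at 0.74 and ALDH1A3, tested there, at -1.64, with edgeR adjusted p values of 0.720, 0.823, 0.727 and 0.381. The number of genes called, 1687, was 4048 without STAG2 KO 5 and 1053 without WT clone 1 of experiment 2.

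The experiments taken alone gave unlike counts. In experiment 1 alone, 5 members were called lower, with log2 fold changes of -2.96 for CRABP1, -2.20 for CRABP2 and -2.66 for CYP26B1, beside 3663 of 14145 genes called, 1965 of them lower. The other 2, ALDH1A1 and ALDH1A3, had both STAG2 KO libraries at the floor, so their folds are not given. In experiment 2 alone edgeR called 0 of 6, with 1 at an unadjusted p under 0.05, although its STAG2 KO libraries were below their own controls for ALDH1A1, CRABP1 and CYP26B1. With the WT clone libraries of each experiment summed, edgeR called 0 of 6, with 3 at an unadjusted p under 0.05 and CYP26B1 at -2.55 (edgeR adjusted p 0.0780), and with the WT clone as the only control it called CYP26B1 alone. DESeq2 called 3, ALDH1A1, CRABP1 and CYP26B1. Marker levels moved along with these results. The 8 Ewing sarcoma markers summed to 3653, 3656 and 3216 CPM in the controls of experiment 1 against 2169 and 2901 CPM in STAG2 KO 5 and 24, and to 2868, 2783 and 2959 CPM against 2170, 2149 and 2144 CPM in experiment 2. The 8 markers of other cells summed to 9.51, 8.53 and 19.3 CPM against 7.71 and 5.17 CPM in experiment 1 and to 8.16, 8.86 and 8.81 CPM against 2.82, 3.88 and 2.97 CPM in experiment 2, with MYH3 the most abundant in every STAG2 KO library. Their part in the members' change was not tested.

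**Figure D1:**
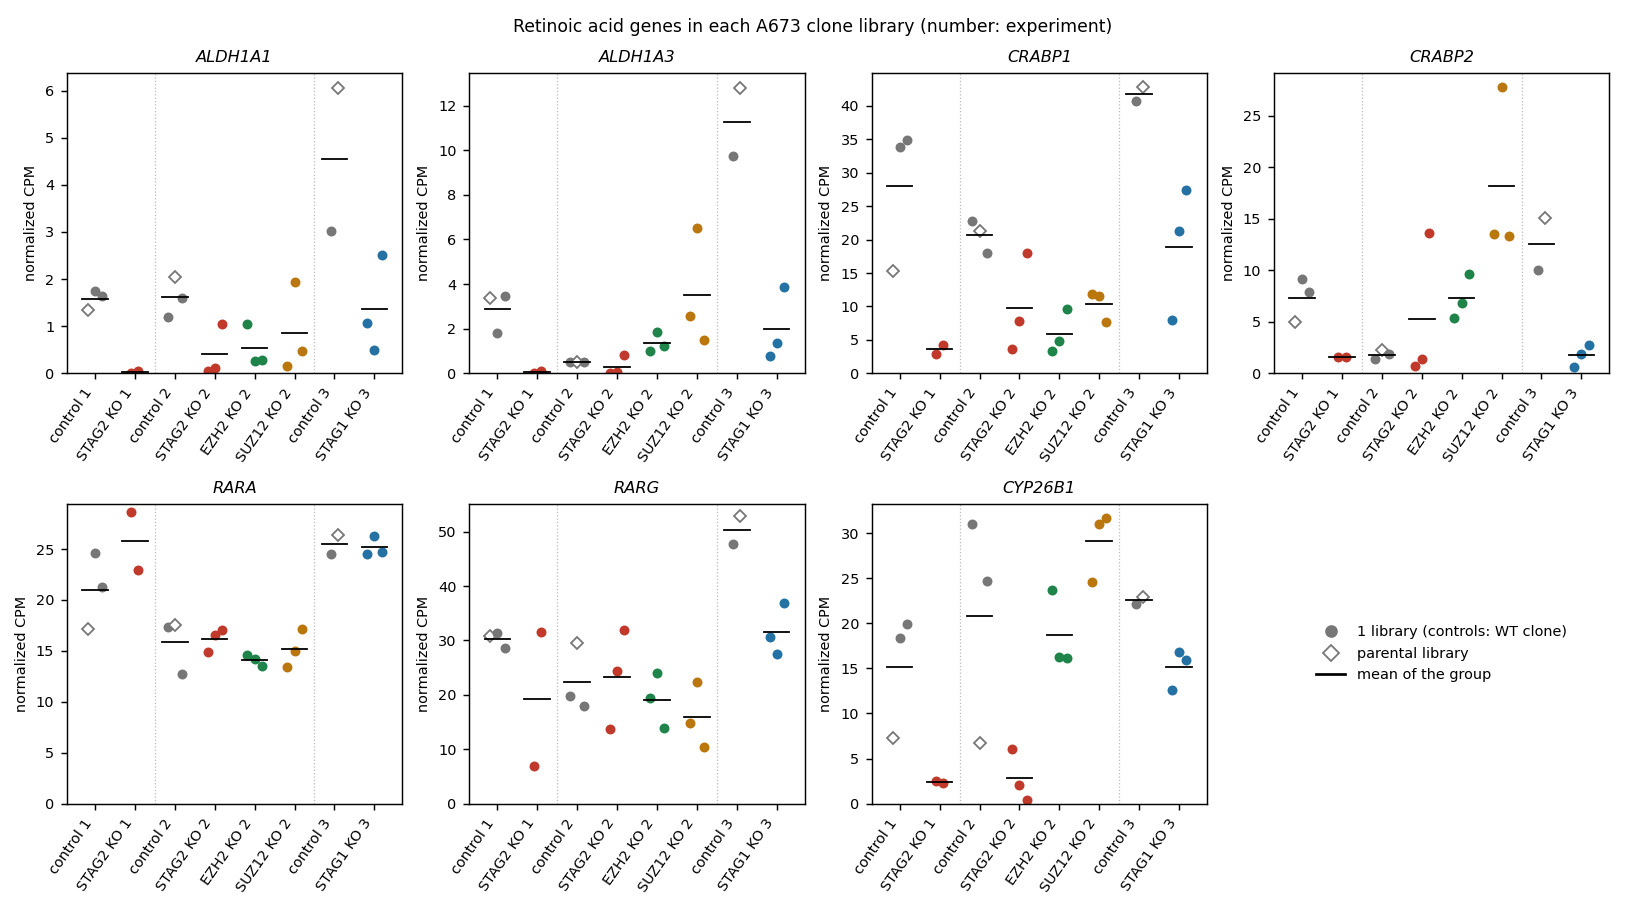
Normalized CPM (vertical axes) of 7 members in each A673 library of experiments 1 to 3, grouped by experiment and genotype, with diamonds for parental cells and a line at each group's mean. CYP26B1 lies between 0.365 and 6.07 CPM in the 5 STAG2 KO libraries and between 6.76 and 31.0 CPM in their 6 controls.

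Whether a transient loss of STAG2 moves the same steps was asked with small interfering RNA, which avoids clonal selection. ALDH1A1 was at 2.86, 6.89 and 6.25 normalized reads in control transfections 1, 2 and 3 and at 0, 0 and 0.966 in siSTAG2 1, 2 and 3. These values rest on 16 recovered reads against 1, a ratio of 15.9 lower (95% interval 2.48 to 669), and the gene was under the mean of 10 normalized reads needed for the test. ALDH1A3, at 10.48, 7.87 and 6.25 in the controls and 1.11, 2.78 and 3.86 after siSTAG2, was under it too, with 25 reads against 8 and no overlap between the groups. CRABP1 was at 273, 223 and 259 normalized reads in control transfections 1, 2 and 3 and at 174, 163 and 199 in siSTAG2 1, 2 and 3. RARG was at 81.0, 82.7 and 119.8 in the controls and 66.6, 57.5 and 68.6 after siSTAG2. CYP26B1 was at 56.2, 52.2 and 55.2 in the controls and 15.5, 13.9 and 15.5 after siSTAG2. In all 3 of these genes every siSTAG2 library was below every control, and the gap relative to the level was widest for CYP26B1. RARA ranged from 50.2 to 72.9 in the controls and from 38.8 to 50.2 after siSTAG2, and CRABP2 from 19.1 to 29.5 and from 14.5 to 23.2, with overlap.

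Of the 10 members, 5 passed the filter on low values, and limma called 3 lower and 0 higher. Of all 12060 genes tested, 20.5% were called and 11.0% were called lower. The median log2 fold change was -0.49 over the 5 members and 0.01 over all genes tested. CYP26B1 was 3.48-fold lower, from 54.5 ± 2.12 to 15.0 ± 0.917 normalized reads (SD, n = 3 each), a log2 fold change of -1.80 with a limma adjusted p of 1.73e-06. CRABP1 was 1.41-fold lower, from 251.8 ± 25.5 to 178.8 ± 18.3 normalized reads (SD, n = 3 each), a log2 fold change of -0.49 with a limma adjusted p of 0.00133. Both calls held without any single library. RARG was 1.44-fold lower, from 94.5 ± 21.9 to 64.2 ± 5.91 normalized reads (SD, n = 3 each), a log2 fold change of -0.53 with a limma adjusted p of 0.0236. That call was lost without control transfection 3, at -0.35 (limma adjusted p 0.195), and without siSTAG2 2, at -0.45 (limma adjusted p 0.105). RARA, at -0.45 (limma adjusted p 0.0954), was called without control transfection 2, at -0.61 (limma adjusted p 0.0328), and CRABP2 was at -0.23 (limma adjusted p 0.624). With no filter, ALDH1A1 was called too, at -2.27 (limma adjusted p 0.00237), and ALDH1A3 was at -1.42 (limma adjusted p 0.0879). Of the 8 markers of other cells, which summed to 93.4, 85.6 and 86.5 normalized reads in the controls and 23.3, 17.6 and 12.6 after siSTAG2, LUM fell from 34.4 to 47.9 down to 2.22 to 3.86 and DCN from 32.4 to 38.4 down to 2.90 to 6.66. PTPRC and ALB had no reads in any of the 6 libraries. The Ewing sarcoma markers summed to 26391, 25674 and 26707 normalized reads in the controls and 21264, 21856 and 22063 after siSTAG2, and the part of these genes in the members' change was not tested.

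**Figure D2:**
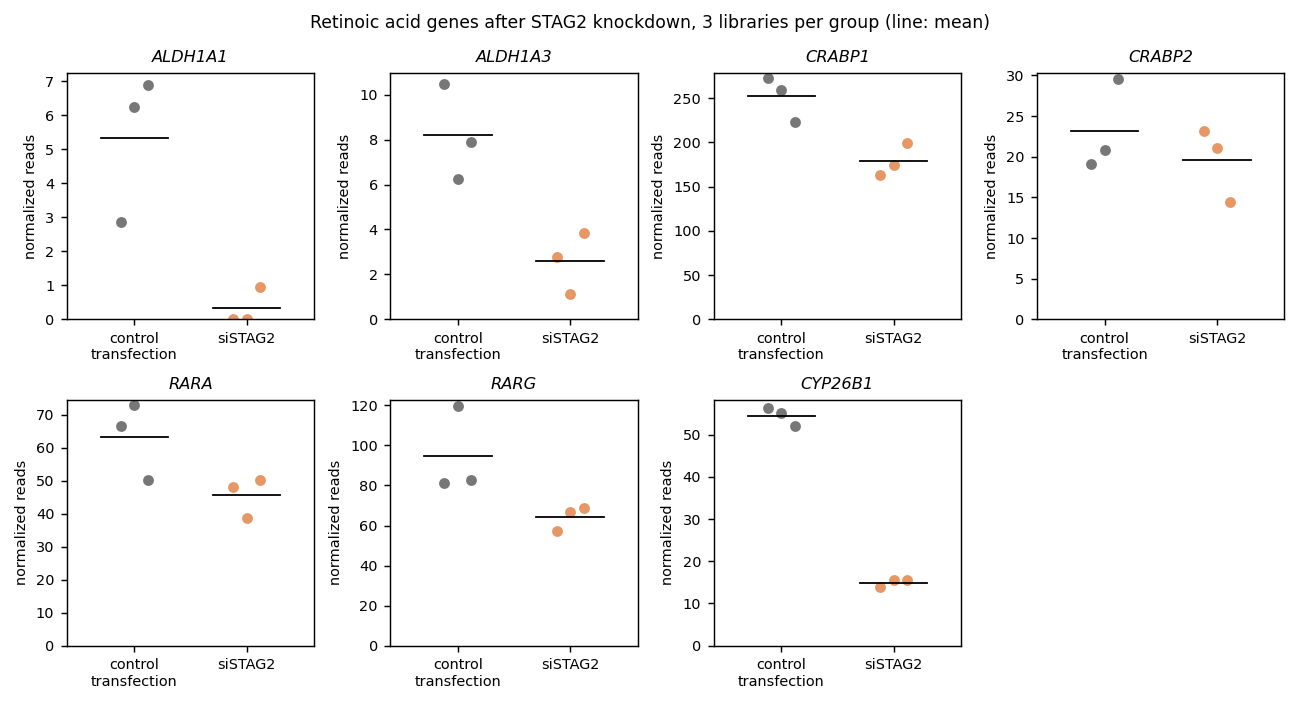
Normalized reads (vertical axes) of members in the 3 control transfections and 3 siSTAG2 libraries of A673 cells, 1 point a library with a line at the group mean. CYP26B1 falls from 52.2 to 56.2 normalized reads to 13.9 to 15.5, and CRABP1 from 223 to 273 to 163 to 199.

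The isogenic pairs asked whether the same genes follow STAG2 in other Ewing sarcoma lines. With 1 library per arm there is no replicate error, so ratios of the line without STAG2 to the line with it are given with exact binomial 95% intervals of the counts, and a ratio past 2-fold counts as called. In SK-N-MC, 7 members had at least 10 counts in the pair, and 3 were called, 2 lower and 1 higher. Of all 16413 genes compared, 21.6% were called, 11.4% lower and 10.2% higher, and the median log2 ratio was -0.11 over the 7 members and -0.01 over all genes. ALDH1A1 went from 93.9 CPM (3095 counts) in the WT to 21.3 CPM (651 counts) in the STAG2 KO, a log2 ratio of -2.14 (-2.26 to -2.02). ALDH1A2 went from 17 counts to 0, at least 5.25-fold lower against a floor of 3 counts in the STAG2 KO library. CRABP2 was higher, from 3.0045 CPM (99 counts) to 8.15 CPM (249 counts), a log2 ratio of 1.42 (1.10 to 1.79). CRABP1 went from 393 to 220 CPM, a log2 ratio of -0.84 (-0.88 to -0.80), which is short of 2-fold. CYP26B1 differed little, at 229 and 213 CPM and a log2 ratio of -0.11 (-0.16 to -0.06), as did RARA at 83.0 and 77.1 CPM (-0.11). RARG was at 38.5 and 48.3 CPM (0.32), ALDH1A3 went from 0 to 7 counts, RARB from 2 counts to 0, and CYP26A1 had 3 counts in each. The SK-N-MC STAG2 KO library also had more RNA of other-cell markers, whose 8 genes summed to 8.47 CPM in the WT and 89.0 CPM in the KO. PTPRC rose from 3.0045 to 58.2 CPM, DCN from 1.52 to 17.4 CPM and EPCAM from 0.819 to 9.36 CPM, ALB was at 2 counts or fewer in both, and their part in the ratios was not tested.

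In A4573, 8 members had at least 10 counts, and 2 were called, 1 lower and 1 higher in the WT, which lacks STAG2, relative to the STAG2 KI. Of all 16124 genes compared, 21.8% were called, 14.1% lower and 7.76% higher, so the members' share of 25.0% was near that of all genes and is not a result about them as a group. The median log2 ratio was -0.14 over the 8 members and 0.0015 over all genes. ALDH1A3 was at 5.54 CPM (174 counts) with STAG2 and 1.29 CPM (39 counts) without it, a log2 ratio of -2.04 (-2.64 to -1.59). CYP26A1 passed 2-fold on 3 counts with STAG2 and 8 without it, a ratio of 2.78 whose interval of 0.667 to 16.3 includes no change. ALDH1A1 had no count in either library and ALDH1A2 had 2 with STAG2 and 0 without it. CYP26B1 was at 22.2 CPM with STAG2 and 15.8 CPM without it, a log2 ratio of -0.49 (-0.66 to -0.32), and CRABP2 at 238 and 178 CPM, a log2 ratio of -0.42 (-0.47 to -0.37). CRABP1, at 1140 and 1090 CPM, RARA, at 29.5 and 26.9 CPM, RARG, at 12.7 and 11.5 CPM, and RARB, at 1.43 and 1.56 CPM, had log2 ratios from -0.15 to 0.12. EZH2 itself differed in this pair, with 42.8 CPM in the STAG2 KI and 119.8 CPM in the WT, and its part in the ratios was not tested. The Ewing sarcoma markers summed to 2674 CPM in the STAG2 KI and 1645 CPM in the WT, with CCND1 at 1634 and 937 CPM, and the 8 markers of other cells to 10.6 and 9.13 CPM, with EPCAM at 2.01 and 0.564 CPM. Their part was not tested either. The dehydrogenase called lower without STAG2 was thus a different gene where counts were highest, ALDH1A1 in SK-N-MC and ALDH1A3 in A4573. No dehydrogenase was called in both lines. ALDH1A3 went from 0 to 7 counts in the SK-N-MC STAG2 KO, and ALDH1A1 had no count in A4573. CYP26B1, called in A673 clones and the knockdown, was short of 2-fold in both pairs, and no test compared the lines.

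**Figure D3:**
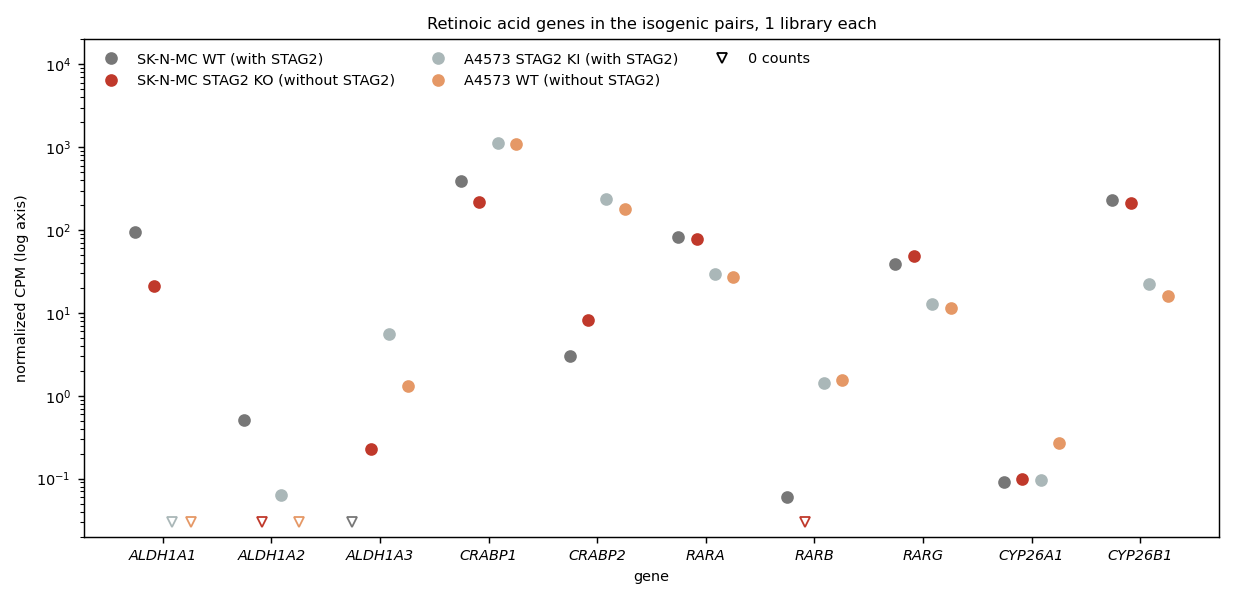
CPM on a log axis of the members in SK-N-MC and A4573, each with and without STAG2, 1 library per point, with triangles for 0 counts. ALDH1A1 drops from 93.9 to 21.3 CPM in SK-N-MC and ALDH1A3 from 5.54 to 1.29 CPM in A4573.

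Experiment 3 asked whether loss of the paralog STAG1 touches the pathway. ALDH1A1 was at 3.03 and 6.07 CPM in the WT clone and parental cells and at 1.07, 0.491 and 2.51 CPM in STAG1 KO g2n1, g2n5 and g2n7. ALDH1A3 was at 9.74 and 12.8 CPM in the controls and 0.758, 1.36 and 3.85 CPM in the 3 knockouts. Both dehydrogenase genes were thus lower in every STAG1 KO library than in either control, with g2n7 the highest of the knockouts. CRABP1 was at 40.7 and 42.9 CPM in the controls and 7.95, 21.3 and 27.4 CPM in g2n1, g2n5 and g2n7. CRABP2 was at 10.0 and 15.0 CPM in the controls and 0.5682, 1.91 and 2.72 CPM in the knockouts. The carriers were lowest in g2n1, the clone whose STAG1 RNA was not lowered. RARG was at 47.8 and 52.9 CPM in the controls and 30.6, 27.5 and 36.8 CPM in the knockouts, and RARA stayed between 24.5 and 26.4 CPM in all 5 libraries. CYP26B1 was at 22.2 and 22.9 CPM in the controls and 12.6, 16.8 and 15.95 CPM in the knockouts. Every knockout was below both controls for the carriers, RARG and CYP26B1, while RARA overlapped. With so few libraries many genes can separate in this way, and their share among all genes was not counted. Other-cell markers varied as well, with the 8 genes summing to 13.1 CPM in the WT clone, 24.9 CPM in parental cells and 10.7, 4.85 and 13.8 CPM in g2n1, g2n5 and g2n7. Of these, LUM was at 1.73 and 7.52 CPM in the controls and 0.126, 0.0545 and 0.205 CPM in the knockouts, DCN at 5.95 and 12.6 CPM and 5.62, 0.545 and 9.49 CPM, and PECAM1 at 0.920 and 0.485 CPM and 1.52, 0.872 and 1.23 CPM, and their part in the members' change was not tested.

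EdgeR tested 7 members and called 1, which was lower. Of all 14373 genes tested, 5.27% were called and 2.50% were called lower, and an unadjusted p was under 0.05 for 6 of the 7 members and for 3578 of the 14373 genes. The median log2 fold change was -1.14 over the 7 members and -0.0028 over all genes tested. CRABP2 was 7.13-fold lower, from 12.53 ± 3.56 CPM (SD, n = 2) to 1.73 ± 1.09 CPM (SD, n = 3), a log2 fold change of -2.83 with an edgeR adjusted p of 0.0453. The call was lost without the parental (edgeR adjusted p 0.328), the WT clone (0.172), the g2n5 (0.0851) or the g2n7 library (0.0605), and without g2n1 it was made at -2.42 (edgeR adjusted p 0.0201). ALDH1A3 at -2.48 (edgeR adjusted p 0.0716) was called without g2n7, at -3.39 (edgeR adjusted p 0.0383), and CRABP1 at -1.14 (edgeR adjusted p 0.182) without g2n1, at -0.77 (edgeR adjusted p 0.0376). RARG at -0.67, CYP26B1 at -0.58, ALDH1A1 at -1.73 and RARA at -0.02 had edgeR adjusted p values of 0.0554, 0.0990, 0.171 and 0.939. The log2 fold change of ALDH1A1 ran from -2.54 to -1.155 without 1 library. Without g2n1, ALDH1A3 was at -2.10, RARG at -0.64, CYP26B1 at -0.45, ALDH1A1 at -1.58 and RARA at 0.01, with edgeR adjusted p values of 0.0574, 0.0671, 0.0758, 0.226 and 0.963. DESeq2 called 4, ALDH1A3, RARG, CRABP2 and CYP26B1, while an edgeR fit over experiments 1 to 3 called 0, with 2 at an unadjusted p under 0.05. The 757 genes called in all became 0 without the parental or the WT clone library, 264 without g2n5, 326 without g2n7 and 1310 without g2n1, and a fit that leaves a control arm with 1 library assumes that it varies like the others.

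Whether loss of STAG2 and of STAG1 act differently on a member was tested as the difference of their effects. EdgeR called 0 of 7 members, with 1 at an unadjusted p under 0.05 beside 2845 of all 14696 genes, and DESeq2 also called 0, against 6.11% of all genes called in edgeR. The member with the lower unadjusted p, CYP26B1, had a difference of -2.21 on the log2 scale with an edgeR adjusted p of 0.195, and CRABP2 had a difference of 2.89 with an edgeR adjusted p of 0.297. The median difference was 0.08 over the 7 members and 0.0019 over all genes tested. Without STAG2 KO 5 of experiment 2, ALDH1A1 was called, at -2.98 (edgeR adjusted p 0.0367), CRABP2 was at 1.30, and the 898 genes called in all became 1860. The CRABP2 difference ran from there to 3.50 without STAG2 KO 5 of experiment 1. Without STAG2 KO 24 or without g2n1 edgeR also called 0 members, with 2 and 1 at an unadjusted p under 0.05, CYP26B1 at -2.25 and -2.32 and CRABP2 at 3.49 and 2.48. The 898 genes became 195 without the parental and 296 without the WT clone library of experiment 3. The calls made for one paralog and not the other are therefore not shown to differ between them.

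The Polycomb knockouts of experiment 2 asked what happens to the pathway when a subunit of repressive complex 2, which methylates H3K27, is knocked out, beside the same 3 controls that served its STAG2 KO clones. ALDH1A1 was at 1.05, 0.271 and 0.284 CPM in EZH2 KO 1, 2 and 3 and at 0.145, 1.94 and 0.483 CPM in SUZ12 KO 1, 2 and 3, against 1.19 to 2.05 CPM in the controls. ALDH1A3 was at 1.01, 1.84 and 1.23 CPM in EZH2 KO and 2.57, 6.49 and 1.503 CPM in SUZ12 KO, against 0.510, 0.510 and 0.499 CPM in the controls. Every Polycomb knockout was above the controls for ALDH1A3, and SUZ12 KO 2 was the highest, while for ALDH1A1 only SUZ12 KO overlapped the controls. CRABP1 was at 3.35, 4.88 and 9.58 CPM in EZH2 KO and 11.9, 11.5 and 7.73 CPM in SUZ12 KO, against 18.0 to 22.8 CPM in the controls. CRABP2 moved the other way, to 5.41, 6.78 and 9.67 CPM in EZH2 KO and 13.5, 27.8 and 13.3 CPM in SUZ12 KO, from 1.36, 1.85 and 2.27 CPM in the controls. Neither carrier gene overlapped its controls in either knockout. RARA ranged from 13.4 to 17.1 CPM and RARG from 10.4 to 24.04 CPM in the 6 knockouts, overlapping the controls. CYP26B1 was at 23.7, 16.2 and 16.1 CPM in EZH2 KO and 24.6, 31.0 and 31.7 CPM in SUZ12 KO, within or near the controls' range of 6.76 to 31.0 CPM. Other-cell markers moved here too, from a sum of 8.16 to 8.86 CPM in the controls to 12.6, 7.54 and 6.97 CPM in EZH2 KO and 7.37, 11.6 and 9.23 CPM in SUZ12 KO. PECAM1 was at 0.396 to 0.510 CPM in the controls, 1.57 to 1.82 CPM in EZH2 KO and 1.21, 4.15 and 1.07 CPM in SUZ12 KO, and EPCAM at 0.0554 to 0.1699, 0.0958 to 0.380 and 0.582, 2.25 and 1.18 CPM. CDH1 had 10 counts in SUZ12 KO 2, 1 in EZH2 KO 1 and 0 in the others and the controls, and LUM fell from 2.36 to 2.55 CPM in the controls to 0 to 1.20 CPM in the 6 knockouts. DCN, the other fibroblast marker, was higher in EZH2 KO 1, at 6.03 CPM, than in any control, with WT clone 2 at 3.57 CPM. In the other control and Polycomb knockout libraries DCN was below the most abundant of the 8 markers, which was at 2.33 to 4.15 CPM. The part of these genes was not tested.

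In EZH2 KO, edgeR called 1 of 7 members, which was lower, a share of 14.3% that was near the 15.7% called among all 15130 genes tested, of which 3.69% were lower, and so is not a result about the members as a group. CRABP1 was 3.28-fold lower, from 20.7 ± 2.44 to 5.94 ± 3.24 CPM (SD, n = 3 each), a log2 fold change of -1.72 with an edgeR adjusted p of 0.0450. The fit used all 12 libraries of experiment 2, and the call was made without EZH2 KO 3, STAG2 KO 5 or STAG2 KO 2 and lost without any 1 of the other 9, at edgeR adjusted p values of 0.0510 to 0.136. CRABP2, 4.22-fold higher at a log2 fold change of 2.08, had an edgeR adjusted p of 0.129 and was called without STAG2 KO 5 at the same 2.08 (edgeR adjusted p 0.00328). ALDH1A3 at 1.5025, ALDH1A1 at -1.49 and CYP26B1 at -0.07 had edgeR adjusted p values of 0.294, 0.342 and 0.954. Without EZH2 KO 1 or EZH2 KO 3 ALDH1A1 was at -2.42 or -1.18, and without the parental or WT clone 1 library CYP26B1 was at -0.51 or 0.31. In SUZ12 KO, edgeR called 2 of 7 members, both higher, against 20.6% of all genes called and 14.7% called higher. CRABP2 was 10.4-fold higher, from 1.83 ± 0.456 to 18.2 ± 8.30 CPM (SD, n = 3 each), a log2 fold change of 3.38 with an edgeR adjusted p of 0.0203. The call was lost without WT clone 1 (edgeR adjusted p 0.0835), WT clone 2 (0.0769), the parental library (0.0574) or SUZ12 KO 2 (0.0691). ALDH1A3 was 7.23-fold higher, from 0.506 ± 0.00653 to 3.52 ± 2.63 CPM (SD, n = 3 each), a log2 fold change of 2.85 with an edgeR adjusted p of 0.0488. It was called without SUZ12 KO 3 or any 1 of the STAG2 KO libraries and lost without any 1 of the other 8, at edgeR adjusted p values of 0.0580 to 0.204, and the log2 fold change without SUZ12 KO 2 was 2.07. The experiment 2 controls were low for both genes. CRABP2 was at 4.97 to 9.16 CPM in the controls of experiment 1 and at 10.0 to 15.0 CPM in those of experiment 3. ALDH1A3 was at 1.80 to 3.48 and 9.74 to 12.8 CPM there. All Polycomb knockout values of both genes, except CRABP2 at 27.8 CPM in SUZ12 KO 2, lay within the range of controls of experiments 1 to 3. Whether the rises depend on these low controls was not tested. CRABP1 at -0.93, CYP26B1 at 0.56 and ALDH1A1 at -0.83 had edgeR adjusted p values of 0.224, 0.581 and 0.574. Without SUZ12 KO 2 or SUZ12 KO 1 ALDH1A1 was at -2.27 or -0.34, and without the parental or WT clone 1 library CYP26B1 was at 0.12 or 0.94. With the WT clone as the only control, or with its libraries summed, edgeR called 0 members in either knockout, with 1 in EZH2 KO and 2 in SUZ12 KO at an unadjusted p under 0.05, whereas DESeq2 called 2 in each, CRABP1 and CRABP2 in EZH2 KO and ALDH1A3 and CRABP2 in SUZ12 KO. The medians over the 7 members were -0.08 in EZH2 KO and 0.0085 in SUZ12 KO, beside 0.04 and 0.0088 over all genes tested.

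All-gene counts in the Polycomb knockouts moved with single libraries. The 2377 genes called in EZH2 KO became 1169 without WT clone 1, 1227 without WT clone 2, 1441 without the parental library, 1571 without EZH2 KO 2 and 3885 without STAG2 KO 5. The 3112 called in SUZ12 KO became 1874 without WT clone 1, 1907 without WT clone 2, 1971 without SUZ12 KO 2 and 4797 without STAG2 KO 5. Compared directly, SUZ12 KO and EZH2 KO differed in 0 of 7 members in edgeR, with 0 at an unadjusted p under 0.05 beside 629 of all genes and 0 in DESeq2, against 0.00661% of 15130 genes, which was EZH2 itself. The log2 differences were 1.30 for CRABP2 and 1.35 for ALDH1A3, each with an edgeR adjusted p of 0.999, and the median was 0.66 over the 7 members and -0.0076 over all genes tested. Without SUZ12 KO 2 the differences were 0.86 for CRABP2 and 0.57 for ALDH1A3. The 1 gene called in all became 4 without STAG2 KO 5 and 2 without SUZ12 KO 3.

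**Figure D4:**
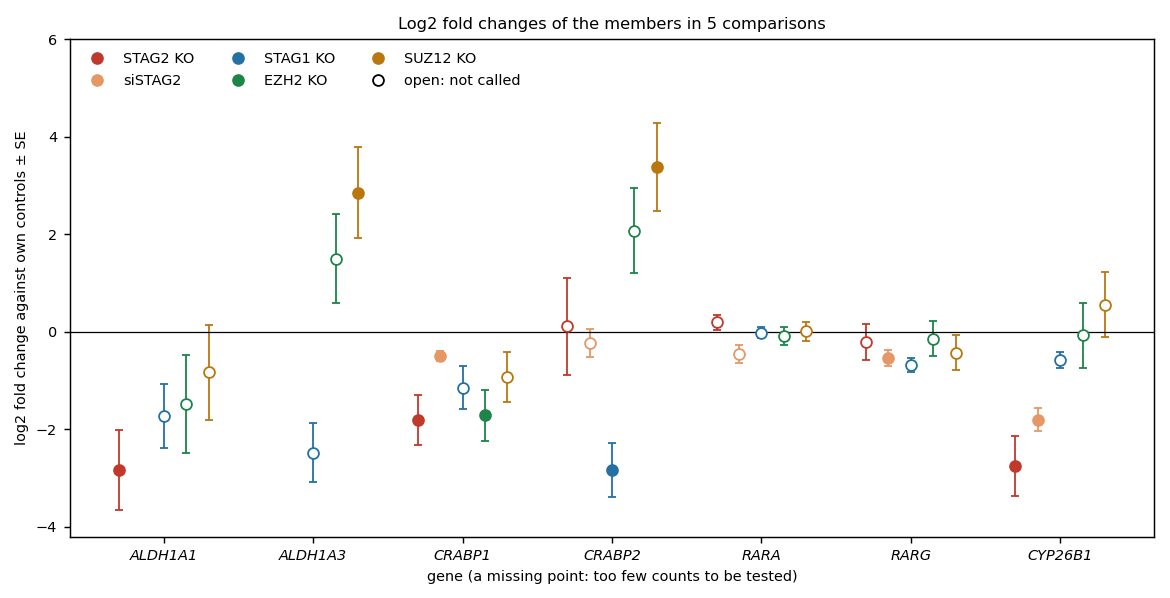
Log2 fold change (vertical axis, bars for the standard error) of each member tested in 5 comparisons, STAG2 KO, siSTAG2, STAG1 KO, EZH2 KO and SUZ12 KO, each against its own controls, with filled points for members called at an adjusted p under 0.05. CYP26B1 lies at -2.75 in STAG2 KO and -1.80 after siSTAG2. CRABP2 lies at -2.83 in STAG1 KO and 3.38 in SUZ12 KO, against controls at 10.0 to 15.0 and 1.36 to 2.27 CPM.

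Because the controls were of 2 kinds, the WT clone, from which the knockouts were made, was also compared with the parental line. This used 5 and 3 libraries of experiments 1 to 3. CYP26B1 was at 18.3, 19.9, 31.0, 24.7 and 22.2 CPM in WT clone libraries and 7.31, 6.76 and 22.9 CPM in parental libraries of experiments 1, 2 and 3. The parental cells were thus far below the WT clone in experiments 1 and 2 and level with it in experiment 3. EdgeR called 0 of 7 members, with 2 at an unadjusted p under 0.05 beside 2320 of all genes, CYP26B1 at 1.16 (edgeR adjusted p 0.0911) and RARG at -0.30 (edgeR adjusted p 0.288), against 2.72% of 14167 genes called. DESeq2 called 1, CYP26B1 at 1.20 (DESeq2 adjusted p 0.000246). The median was -0.05 over the 7 members and -0.01 over all genes tested. EdgeR called CYP26B1 at 1.69 without the parental (edgeR adjusted p 0.00368) or the WT clone library (edgeR adjusted p 0.00394) of experiment 3. The 385 genes called in all became 953 and 924 without those libraries. Without 1 library of experiment 2 they became 98 (WT clone 1), 102 (WT clone 2) or 211 (parental), and without WT clone Ra or Rb of experiment 1 they became 184 or 186. With the WT clone as the only control, STAG2 KO clones had CYP26B1 at -3.13 (edgeR adjusted p 0.0123).

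The other genes of the pathway, 42 in all for uptake, esterification, interconversion of retinol and retinaldehyde, other carriers, receptor partners and cofactors, put the members in context. In STAG2 KO clones 21 could be tested, and edgeR called 4 higher and 2 lower, a share of 28.6% beside 12.4% of all genes, with a median log2 fold change of -0.03 beside 0.04 over all genes tested. The count of 6 became 10 without STAG2 KO 5 of experiment 2, 3 with WT clone libraries summed and 1 in experiment 2 alone. RDH10, which oxidizes retinol to retinaldehyde, was higher, at 10.8 ± 1.20 CPM (SD, n = 5) against 4.59 ± 0.787 CPM (SD, n = 6), a log2 fold change of 1.27 with an edgeR adjusted p of 0.00132, and was called without any single library. Without STAG2 KO 24, RDH10 was at 1.22, CYP1B1 at 1.32 and NRIP1 at 1.16, all called in edgeR. Over all libraries, CYP1B1 at 1.30 and NRIP1, a corepressor induced by retinoic acid, at 1.15 were higher too, with edgeR adjusted p values of 0.00327 and 0.00351, and NCOA3 completed the 4. For each of RDH10, CYP1B1 and NRIP1, 1 alternative other than a left-out library lost the call. PPARD at -0.79 (edgeR adjusted p 0.0223) and DHRS4 at -0.74 (edgeR adjusted p 0.0428) were lower. The PPARD call was lost without STAG2 KO 5 (edgeR adjusted p 0.0634) or 24 (0.0605) of experiment 1, and that of DHRS4 without any 1 library other than the parental library of either experiment or STAG2 KO 5 of experiment 2 (0.0735 to 0.105). After siSTAG2, limma called 2 of 19 higher and 2 lower, with a median of -0.10 beside 0.01, and the share of 21.1% was near the 20.5% of all genes. FABP5 at 0.44 (limma adjusted p 0.000350) and RDH13 at 0.40 (0.00948) were higher, and CYP1B1 at -0.55 (0.0135) was among the lower. CYP1B1 therefore moved up in the clones and down in the knockdown, and the difference was not tested. Its knockdown call was lost without siSTAG2 3 (limma adjusted p 0.0608), and that of RDH13 without control transfection 1 (0.0688) or siSTAG2 3 (0.0566).

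In STAG1 KO, edgeR called 2 of 24 pathway genes higher, NRIP1 at 0.71 (edgeR adjusted p 0.0471) and FABP5 at 0.60 (0.0491), and 0 lower, a share of 8.33% beside 5.27%, with a median of -0.04 beside -0.0028 over all genes tested. Both calls were made without g2n1 and lost without any 1 of the other 4 libraries, at edgeR adjusted p values of 0.0767 to 0.369. EZH2 KO had 3 of 26 higher and 2 lower with a median of 0.23 beside 0.04, and SUZ12 KO had 4 of 26 higher and 2 lower with a median of 0.26 beside 0.0088. Their shares of 19.2% and 23.1% were near the 15.7% and 20.6% of all genes called and are not a result about the list. The 5 called in EZH2 KO became 8 without STAG2 KO 5 and 3 without WT clone 1. The 6 called in SUZ12 KO became 11 without STAG2 KO 5 and 4 without WT clone 1. DHRS3, which reduces retinaldehyde back to retinol, rose from 0.519 ± 0.289 CPM to 9.64 ± 1.96 CPM in EZH2 KO and 18.5 ± 10.4 CPM in SUZ12 KO (SD, n = 3 each), with log2 fold changes of 4.28 (edgeR adjusted p 0.00237) and 5.20 (0.000689). SCARB1 fell at -1.04 (edgeR adjusted p 0.00340) and -1.10 (0.00182). DHRS3 and SCARB1 were called without any single library in both knockouts. The others called higher were CYP1B1 and LRAT in both knockouts and RDH10 in SUZ12 KO. SUZ12 KO and EZH2 KO differed in 0 of 26 in edgeR, with 1 at an unadjusted p under 0.05, and in 0 in DESeq2, with medians of 0.09 and -0.0076.

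For the difference between STAG2 and STAG1 effects, edgeR called 2 of 25 pathway genes higher, RDH10 at 1.21 (edgeR adjusted p 0.0238) and NCOA3 at 0.56 (0.0313), and 1 lower, DHRS4 at -1.54 (0.0110), a share of 12% beside 6.11% of all genes, with a median of -0.03 beside 0.0019 over all genes tested. The RDH10 call was lost without any 1 of the 5 libraries of experiment 3 (edgeR adjusted p 0.0548 to 0.163), that of DHRS4 without the parental (0.1004) or WT clone library (0.0681) of experiment 3, and that of NCOA3 without any 1 library of experiment 3 or WT clone 1 or 2 of experiment 2 (0.0528 to 0.166). WT clone and parental cells differed in 0 of 22 in edgeR, with 2 at an unadjusted p under 0.05, and in 1 in DESeq2, with a median of 0.02 beside -0.01. In the isogenic pairs, SK-N-MC had 3 of 31 past 2-fold higher and 5 lower with a median log2 ratio of -0.11 beside -0.01, and A4573 had 5 of 28 higher and 0 lower with a median of 0.02 beside 0.0015. The shares past 2-fold, 25.8% and 17.9%, were near the 21.6% and 21.8% of all genes. RDH10 rose from 45.5 to 154 CPM in the SK-N-MC STAG2 KO, a log2 ratio of 1.75 (1.67 to 1.84), DHRS3 from 0.303 to 5.14 CPM, at 3.82 (3.17 to 5.17), and RBP7 was at 1.04 (0.32 to 1.94). RBP4 was at -3.77 (-4.95 to -3.13) there. NRIP1, higher in the A673 STAG2 KO clones, was lower here, at -2.0002 (-2.36 to -1.70), and the others lower were RDH16, RDH11 and RDH5, the last on 5 counts against 15 with an interval of -3.29 to 0.06 that includes no change. In A4573, RDH10 differed little, at 53.5 CPM with STAG2 and 49.5 CPM without it (-0.11). There CYP1B1 at 1.81 (1.40 to 2.32) and RXRG at 1.09 (0.79 to 1.41) were higher without STAG2, as were BCO1, on 17 counts against 1, DHRS3, and ALDH8A1, on 8 counts against 3 with an interval of -0.58 to 4.02 that includes no change.

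Genes that retinoic acid can induce, 16 in all, were read next. Neither retinoic acid nor receptor activity was measured, so their levels do not show its output. RET, a receptor kinase of neural crest cells, changed most of them in the cells without STAG2. RET was at 279, 277 and 109.5 CPM in WT clone Ra, WT clone Rb and parental cells of experiment 1 and 10.47 and 6.58 CPM in STAG2 KO 5 and 24. In experiment 2 it was at 266, 247 and 96.7 CPM in WT clone 1, WT clone 2 and parental cells and 10.4, 18.6 and 14.7 CPM in STAG2 KO 2, 3 and 5, so all 5 clones lay far below all 6 controls. Its log2 fold change was -4.14 with an edgeR adjusted p of 0.000148, called without any single library, and it was the 1 of 6 inducible genes called in STAG2 KO, where their median was -0.25 beside 0.04 over all genes tested. After siSTAG2, RET fell from 298, 354 and 347 to 131, 138 and 124 normalized reads, a log2 fold change of -1.34 with a limma adjusted p of 1.77e-10, again called without any single library. TNFAIP2 at 0.76 (limma adjusted p 0.00643, and 0.0531 without siSTAG2 1) and MEIS1 were the 2 of 5 called higher there, with a median of 0.29 beside 0.01. RET had 639 counts in SK-N-MC WT and 2, at the floor, in its STAG2 KO. It was 296-fold lower there by counts scaled for depth (95% interval 81.6 to 2451) and 150-fold lower with the prior count of 2, so the size is not exact. In A4573, RET was at 20.8 CPM in the STAG2 KI and 4.85 CPM in the WT, a log2 ratio of -2.08 (-2.37 to -1.84). The effect of STAG2 KO on RET differed from that of STAG1 KO, where it was at 400.2, 421 and 233 CPM against 271 and 187 CPM in the controls, by -4.79 on the log2 scale (edgeR adjusted p 0.000853), and was the 1 of 6 inducible genes called, 16.7% beside 6.11% of all genes, with a median of 0.43 beside 0.0019. The WT clone was above the parental line for RET, at 1.13 (edgeR adjusted p 0.00516), and below it for TNFAIP2, at -1.36 (0.0189), the 2 of 6 called, 33.3% beside 2.72% of all genes, with a median of 0.16 beside -0.01, and the TNFAIP2 call was lost without WT clone 1 (0.0785), WT clone 2 (0.0713) or the parental library (0.0722) of experiment 2.

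In STAG1 KO, 2 of 6 inducible genes were called lower, MEIS2 at -0.88 (edgeR adjusted p 0.0462) and MEIS1 at -0.86 (0.0451), and 0 higher, with a median of -0.46 beside -0.0028. Both calls were made without g2n1 and lost without any 1 of the other 4 libraries, at edgeR adjusted p values of 0.0695 to 0.359. HOXA4 had 0 counts in every control and every STAG2 KO and STAG1 KO library of A673. In EZH2 KO 1, 2 and 3 it was at 3.26, 3.04 and 2.75 CPM, at least 17.2-fold higher against a floor of 3 counts per control library (edgeR adjusted p 0.000262), and in SUZ12 KO 1, 2 and 3 at 3.78, 4.06 and 4.67 CPM, at least 23.7-fold higher (edgeR adjusted p 0.000148). EZH2 KO had 3 of 8 inducible genes called higher, HOXA4 and TGM2 among them, with 0 lower and a median of 0.59 beside 0.04. SUZ12 KO had 4 of 8 higher, HOXA4, TGM2 and TNFAIP2 among them, and MEIS2 lower at -1.26 (edgeR adjusted p 0.0369), with a median of 1.13 beside 0.0088. The MEIS2 call was lost without WT clone 1 (edgeR adjusted p 0.108), WT clone 2 (0.0965), SUZ12 KO 1 (0.0598) or SUZ12 KO 2 (0.117). SUZ12 KO and EZH2 KO differed in 0 of 8 in edgeR, with 0 at an unadjusted p under 0.05, and in 0 in DESeq2, with medians of 0.17 and -0.0076. In SK-N-MC, 4 of 8 inducible genes were lower and 0 higher, with a median log2 ratio of -1.01 beside -0.01, RET, TNFAIP2 at -2.98 (-3.60 to -2.54), PLAAT4 and TGM2. In A4573, 2 of 9 were lower, RET and TGM2 at -1.97 (-2.76 to -1.40), and 1 was higher, with a median of -0.32 beside 0.0015. Of inducible genes tested, 16.7% were called in STAG2 KO, 60.0% after siSTAG2, 33.3% in STAG1 KO, 37.5% in EZH2 KO and 62.5% in SUZ12 KO, and 50% and 33.3% were past 2-fold in SK-N-MC and A4573. These lists of 5 to 9 genes stood beside 12.4%, 20.5%, 5.27%, 15.7% and 20.6% of all genes called, and 21.6% and 21.8% past 2-fold. The 5 called in SUZ12 KO became 3 without WT clone 1, WT clone 2, SUZ12 KO 1 or SUZ12 KO 2, and with WT clone libraries summed. The 1 called in STAG2 KO became 2 without STAG2 KO 5 of experiment 2 or STAG2 KO 24. Genes named here and among the other pathway genes without a fold change or ratio, and MEIS1 after siSTAG2, NRIP1 in SK-N-MC and RDH10 in A4573, were named after their values were seen.

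**Figure D5:**
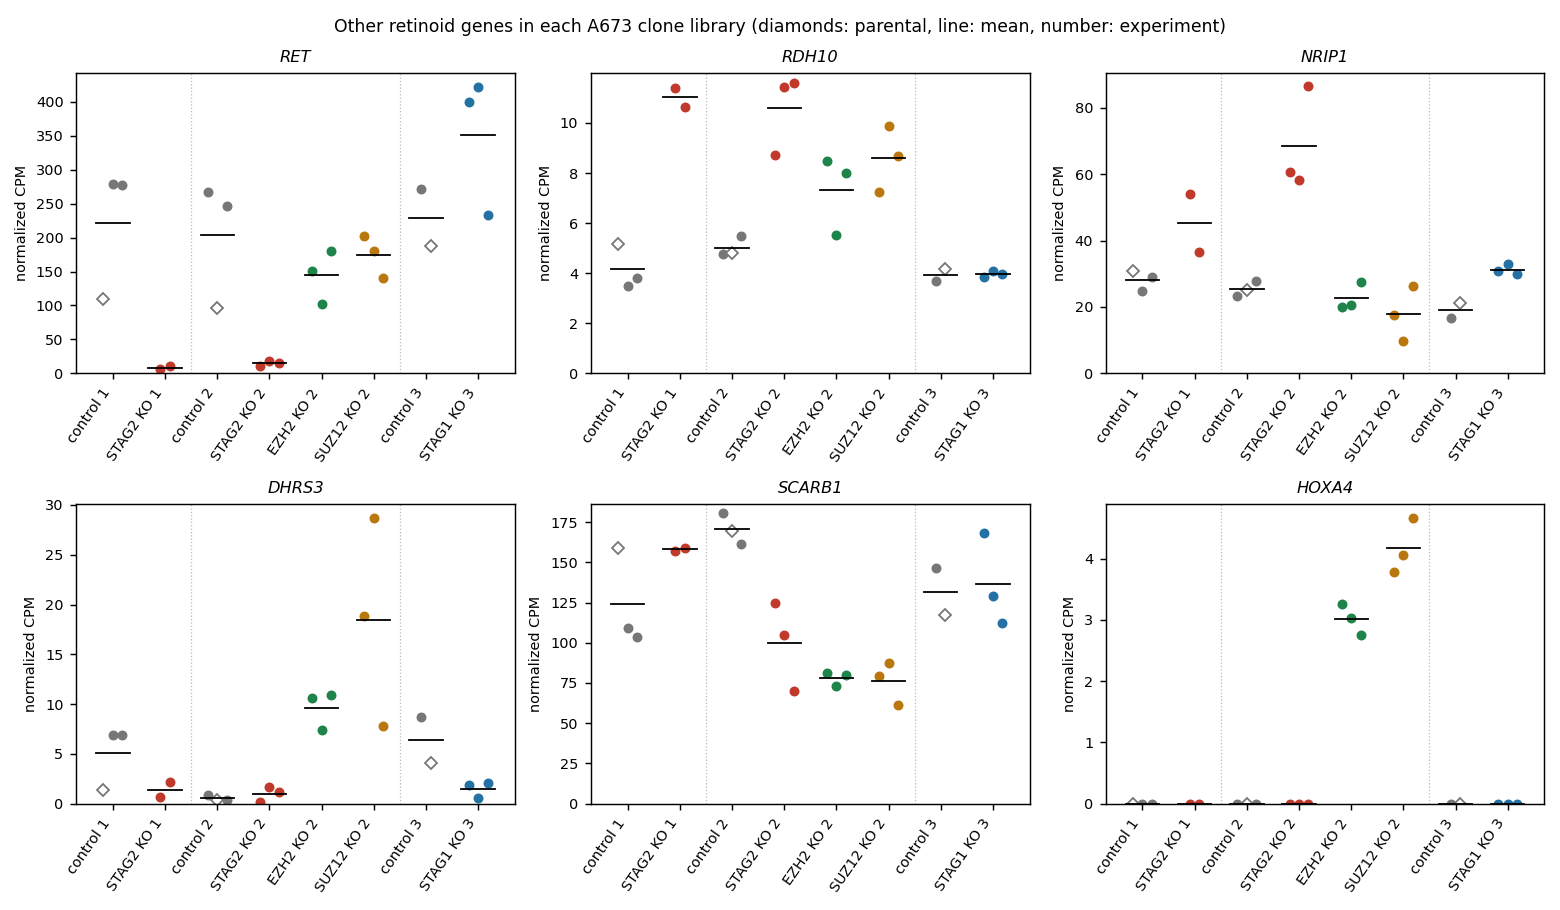
Normalized CPM (vertical axes) of RET, RDH10, NRIP1, DHRS3, SCARB1 and HOXA4 in each A673 library of experiments 1 to 3, grouped by experiment and genotype, with diamonds for parental cells and a line at each group's mean. RET lies between 6.58 and 18.6 CPM in the 5 STAG2 KO libraries and at 96.7 CPM or above in the others, and HOXA4 is above 0 in EZH2 KO and SUZ12 KO libraries alone.

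How the members vary together was described over the 22 A673 clone libraries after subtracting each experiment's mean from log2 CPM. These libraries share experiments, genotypes and controls, so the correlations carry no test. ALDH1A3 and CRABP2 had the highest Pearson correlation between members, 0.880, followed by ALDH1A1 with CRABP1 at 0.752 and ALDH1A1 with ALDH1A3 at 0.689. Among 13392 genes, those most like CYP26B1 were GAS1 (0.948), DAB1 (0.922) and ADRA1D (0.916), and those most like CRABP1 were FBLN7 (0.910), ZBED3 (0.871) and XPC (0.870). ALDH1A1 was most like COQ10A (0.856), GAS2 (0.852) and MMP10 (0.849). ALDH1A3 was most like DHTKD1 (0.940), TLE2 (0.938) and ACRBP (0.934), and CRABP2 most like ZNF853 (0.940), IGLON5 (0.934) and ZEB1-AS1 (0.926).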

How the data were processed

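The count tables (gene counts) and the knockdown signal (normalized reads) were used as deposited; by the authors' processing notes, reads were aligned to hg38 with TopHat2 2.0.0 and Bowtie 0.12.7, with SAMtools 0.1.16, and knockdown values were normalized with DESeq2. All columns of these tables were used (0 left out). Count tables were fitted with edgeR 4.0.16 (quasi-likelihood, TMM scaling, low-count filter by group), with DESeq2 1.42.0 as an alternative, and log2(value + 1) of the knockdown with limma 3.58.1 (trend, mean of at least 10), in R 4.3.3. P-values were adjusted over all genes tested (Benjamini-Hochberg). Whole reads were recovered for 100% of knockdown values (tolerance 0.1), and edgeR on them called 2503 of 12199 genes, 2417 of them shared with limma. Isogenic ratios used log2 CPM (prior count 2). Members and lists were chosen with earlier results of these data known. Of the lists, up to 3 called genes with the highest and 3 with the lowest log2 fold change, were named if they averaged 1 CPM or more (10 normalized reads or more in the knockdown). Some genes of these lists are counted but not reported here by name.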

Additional observations from a re-analysis of the deposited data

Results flagged for a closer look

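Each member above a mean of 1 CPM was tested for a library far from the others of its group, in the controls and in the STAG2 KO clones of experiments 1 and 2, which made 14 groups. The test compared the gap to the nearest library with the whole range, on log2 CPM, and about 1 in 20 groups would pass it by chance. Of the 14 groups, 2 passed, and both were set off by STAG2 KO 5 of experiment 2. ALDH1A1 was at 1.043 CPM in that library and at 0 to 0.105 CPM in the other 4 clones. Those 4 were at the floor, and the gap was 0.712 of the range against a critical 0.71. This pass therefore depends on how counts near 0 enter the log2 scale and is not read further. CRABP2 was at 13.62 CPM in STAG2 KO 5 of experiment 2 and at 0.662 to 1.61 CPM in the others.

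The same library stood apart from its neighbours over all genes, with a mean chi-square of 105.4 against STAG2 KO 3 and 130.6 against STAG2 KO 2, whereas those 2 had 24.02 between them. Its STAG2 RNA was as low as in the other clones of experiment 2, at 59.2 CPM. The WT clone libraries Ra and Rb of experiment 1 were the reverse, with a mean chi-square of 1.309 over 14986 genes against 8.821 to 130.6 in the other pairs of A673 clone libraries of a group, so they may be repeats of 1 culture or RNA. They were counted as 2 libraries, and results with WT clone libraries summed are given with the other alternatives. The cause of either finding was not tested.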

How the results depend on the processing

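Alternatives were run for every comparison, and each library was left out in turn in all but the isogenic pairs, which had 1 library per arm. Where a left-out library leaves an arm with 1 sample, that sample is assumed to vary like the others. Of 1341 log2 fold changes of members, named genes and targets under the alternatives, 1150 had the sign and call first given, 133 lost the call, 17 gained it and 41 changed sign. Of 58 log2 ratios of the isogenic pairs, 56 were within the counting interval and 2 moved beyond it.

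In STAG2 KO clones, 3 members were called. DESeq2, RLE scaling and no low-count filter also called 3 (ALDH1A1, CRABP1 and CYP26B1), and a fit with no experiment term called 2. Experiment 1 alone called 5, experiment 2 alone 0, the WT clone as only control 1 and WT clone libraries summed 0, and leaving out 1 library gave 1 to 4. Against 1687 genes called in all, DESeq2 called 2616, of which 1677 were shared, experiment 1 alone 3663, experiment 2 alone 494, summed WT clone libraries 653, and fits without 1 library 1053 to 4048. RARG, not called at -0.20, was at 0.1202 in experiment 2 alone and at -0.4551 to 0.1154 without 1 library. CRABP2, not called at 0.11, was at -0.2398 with no experiment term, -2.196 in experiment 1 alone, -0.2131 with the WT clone as only control, -0.1987 with summed WT clone libraries and -1.49 to 0.7452 without 1 library. The CYP26B1 call was lost in experiment 2 alone and with WT clone libraries summed and was made under the other alternatives and without any single library, whereas calls of ALDH1A1 and CRABP1 were lost in most fits without 1 library.

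After siSTAG2, 3 members were called, as under pseudocounts of 0.5 and 5 and in edgeR on recovered reads. Without the filter 4 were called, and when an average of 50 or more was required 2, CYP26B1 being under it. A fit with the replicate number as a block also called 3 members, and 2881 genes in all against 2476. The transfections share only a number, and their deviations from the group means correlated at 0.0257, 0.0372 and 0.0040 for numbers 1, 2 and 3, so the numbers do not pair them, although 5 of 6 libraries correlated best with their own number.

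In STAG1 KO clones, 1 member was called, against 4 in DESeq2, 3 with no low-count filter, 0 in a fit over experiments 1 to 3 and 0 to 2 without 1 library. Genes called in all were 757, against 1935 in DESeq2 (752 shared), 153 in the fit over experiments 1 to 3 and 0 to 1310 without 1 library. RARA, at -0.02, was at 0.00172 in the fit over experiments 1 to 3 and at -0.06194 to 0.02612 without 1 library.

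In EZH2 KO clones, 1 member was called, against 2 in DESeq2, 3 with own and control libraries only, 0 with the WT clone as only control, 0 with WT clone libraries summed and 0 to 2 without 1 library. The 2377 genes called in all became 1441 with the WT clone as only control, 1259 with WT clone libraries summed and 1169 to 3885 without 1 library. RARG, at -0.14, was at 0.09235 with the WT clone as only control and at -0.3514 to 0.09235 without 1 library. CYP26B1, at -0.07, was at 0.1563 with WT clone libraries summed and at -0.5086 to 0.3136 without 1 library.

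In SUZ12 KO clones, 2 members were called, against 3 with own and control libraries only (4378 genes in all), where CRABP1 was called lower at -0.906, 0 with the WT clone as only control, 0 with WT clone libraries summed and 0 to 2 without 1 library. Genes called in all were 3112, against 1984 with WT clone libraries summed and 1874 to 4797 without 1 library. RARA, at 0.01, was at -0.01105 with no low-count filter, -0.05871 with WT clone libraries summed and -0.1499 to 0.09027 without 1 library. Between SUZ12 KO and EZH2 KO, 1 gene was called in all, against 22 in DESeq2 and 1 to 4 without 1 library, and ALDH1A1 differed by -0.7879 to 1.585 without 1 library.

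For the STAG2 KO effect minus the STAG1 KO effect, 0 members were called in edgeR and DESeq2, with 1 at an unadjusted p under 0.05 in edgeR, and 0 to 1 without 1 library. Genes called in all were 898, against 1536 in DESeq2 (894 shared) and 195 to 1860 without 1 library, and ALDH1A3, at 0.08, was at -2.561 to 0.9541 without 1 library. Between WT clone and parental cells, 0 members were called in edgeR, with 2 at an unadjusted p under 0.05, against 1 in DESeq2 and 0 to 1 without 1 library. Genes called in all were 385, against 631 in DESeq2 (373 shared) and 98 to 953 without 1 library. Without 1 library, RARA was at -0.1679 to 0.1912, CRABP1 at -0.06632 to 0.6001 and CRABP2 at -0.5571 to 0.2634.

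In A4573, 2 members were past 2-fold, against 1 with scaling by library size only, 1 with a prior count of 5 and 1 with at least 50 counts needed, and CYP26A1, on 3 and 8 counts, was not among those called there. The cause of these shifts was not tested.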
